A study of Mus musculus with 6 samples.

Results

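The pentose phosphate pathway and the cytosolic enzymes that make NADPH were followed through 9 genes, G6pdx, Pgls, Pgd, Rpia, Rpe, Tkt, Taldo1, Me1 and Idh1. They were chosen by symbol, and each matched 1 Ensembl identifier among the 54232 in the count tables. All 9 passed the filter on low counts, which kept 15763 genes. The libraries came from esophagus of mice that had drunk the carcinogen 4-nitroquinoline 1-oxide (4-NQO), which gives squamous tumors there. Both groups drank 100 µg/ml 4-NQO from 8 weeks of age for 16 weeks and plain water for 12 more weeks. In the last 2.5 weeks both received 10 µg antibody into the peritoneum, 2 times a week. The isotype group received a control antibody and the DTA-1 group an agonist antibody against GITR, a co-stimulatory receptor of T cells, with 3 libraries in each group. The sources used here name neither strain nor sex, and do not say whether each library came from its own mouse, so p-values speak only of the spread between libraries, some of which may be technical. Where 3 values of a group are listed, they are those of replicates 1, 2 and 3 in order.

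The pathway starts from glucose-6-phosphate. Its oxidative branch makes NADPH and ribulose-5-phosphate, and its non-oxidative branch interconverts pentose phosphates with glycolytic sugars. Malic enzyme 1 and isocitrate dehydrogenase 1 make further NADPH in the cytosol. Cells spend NADPH on reducing glutathione and thioredoxin and on building fatty acids and sterols, and squamous epithelium with active NRF2, the transcription factor of the oxidative stress response, is known for high levels of several of these enzymes.

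Per the labels, the tissue had been enriched for invading cells, and markers of several cell types were present. All 21 squamous markers were detected in every library, and they took 4.50% to 5.74% of counts in isotype libraries and 3.54%, 0.927% and 1.19% in DTA-1 replicates 1, 2 and 3. The 18 striated muscle markers took 6.17% to 10.5% of counts in isotype libraries and 11.3% to 15.1% in DTA-1 libraries. Markers of other tissues were uneven between libraries. Stomach gland markers summed to 2062 CPM (the counts of a gene relative to the library size, with TMM factors) in isotype replicate 3 and to 0.94 to 301 CPM elsewhere, and red cell markers to 2903 CPM in DTA-1 replicate 2 and to 85.2 to 172 CPM elsewhere. In RNA from whole tissue, fewer cells of a type and less RNA per cell cannot be told apart. Total counts were 23147873 to 29065162 per library.

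DTA-1 libraries carried fewer reads of the 9 genes together. The genes summed to 1431, 1304 and 1236 CPM under isotype antibody against 1016, 602 and 1099 CPM under DTA-1. No DTA-1 library reached the isotype range, and DTA-1 replicate 2 was the lowest. Of the 9 genes, 8 had a negative log2 fold change (DTA-1 over isotype), against 52.9% of all genes tested, with a median of -0.37 against -0.03. No member passed edgeR's quasi-likelihood test at an adjusted p of 0.05, which called 0.0% of all genes. Unadjusted p-values of edgeR were under 0.05 for Idh1 (0.00433), Pgd (0.0141) and G6pdx (0.0211), all 3 lower in DTA-1, against 7.52% of all genes. DESeq2, which called 0.81% of genes lower, and limma-voom called no member either. In G6pdx, Pgd, Tkt and Idh1, 4 of the 9, the groups did not overlap and DTA-1 was below, as for 9.38% of genes tested. The members were named with earlier results of these data known, so these counts are a description.

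**Figure D1:**
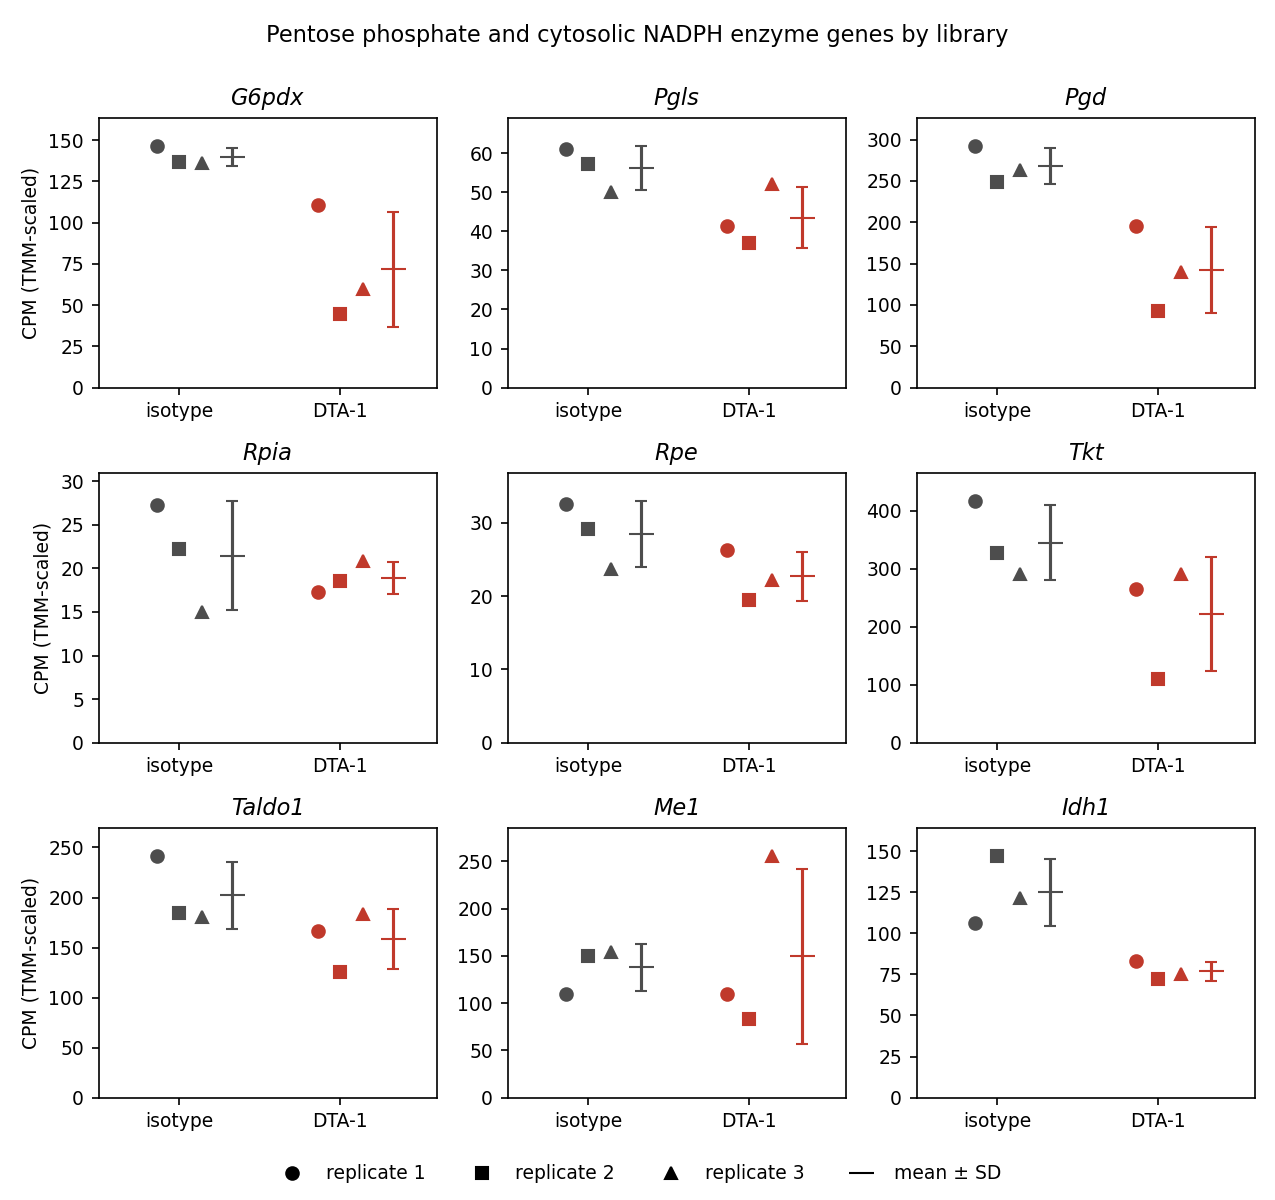
CPM of the 9 genes in each of the 6 libraries, with isotype libraries in gray, DTA-1 libraries in red, marker shape for the replicate number and bars for the group mean ± SD (n = 3 each); each vertical axis starts at 0. The groups are apart in G6pdx, Pgd, Tkt and Idh1, for Tkt by 1.39 CPM alone, and Me1 has its highest value in DTA-1 replicate 3.

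G6pdx encodes glucose-6-phosphate dehydrogenase, which sets the rate of entry into the pathway and makes its first NADPH (chromosome X, 74409483 to 74429194, GRCm38, ENSMUSG00000031400). It stood at 146, 137 and 136 CPM under isotype antibody against 111, 44.5 and 59.9 CPM under DTA-1. The isotype libraries lay close together, with a coefficient of variation of 4.02% against a median of 20.1% over all genes tested, while the DTA-1 libraries spread over 48.3% against 22.2%. DTA-1 replicate 1 lay nearest to the isotype libraries, at 79.1% of their mean, and replicates 2 and 3 at 31.8% and 42.9%. The log2 fold change was -0.96 ± 0.33 (SE), with an adjusted p of 0.39 in edgeR and 0.17 in DESeq2. Without DTA-1 replicate 1 it was -1.42 and passed edgeR (adjusted p = 0.0309), where 3.31% of all genes were called lower. DESeq2 called it there too (adjusted p = 2.19e-08), with 10.4% of genes called lower. Without any other single library it did not pass, and its edgeR value was nearest to 0 without DTA-1 replicate 2, at -0.71 (adjusted p = 0.859).

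The 250 bases upstream of the annotated start of G6pdx are shown because they hold the core of the antioxidant response element, the sequence NRF2 binds. The annotated start is that of RefSeq. GENCODE places the start of the gene further upstream, at 74429194, so the whole window lies inside the gene span given above. The search was for TGACNNNGC on both strands, in windows of this length. Bases are 5′ to 3′ on the strand of the gene (RefSeq, GRCm38.p6, chrX:74428881-74429130, minus strand), and capitals mark the match, which lies on the opposite strand and begins 57 bases upstream of the start.

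G6pdx: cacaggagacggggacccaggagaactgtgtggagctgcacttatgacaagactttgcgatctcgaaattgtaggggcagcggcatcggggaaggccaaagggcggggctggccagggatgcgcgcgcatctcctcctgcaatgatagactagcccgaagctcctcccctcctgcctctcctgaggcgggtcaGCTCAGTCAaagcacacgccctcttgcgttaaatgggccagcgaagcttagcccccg

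All 9 members had at least 1 such window, 12 in total, and 1 of the 12 held the core, against 10.2% of 32851 windows of all genes. The GC box GGGCGG, bound by SP1-type factors, was present in 10 of the 12 windows on either strand, against 32.7% of all windows. Those windows include genes that did not pass the filter here. They were not matched to the GC content of the member windows, 46.0% to 72.0%. In the window of G6pdx it does not overlap the match in capitals. A match is a description of the letters, and its absence from a window says nothing about binding elsewhere.

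Pgd, the 6-phosphogluconate dehydrogenase that makes the pathway's other NADPH (chromosome 4, 149149991 to 149166771, ENSMUSG00000028961), followed the same order of libraries as G6pdx within the DTA-1 group. It stood at 292, 249 and 263 CPM under isotype antibody against 196, 92.3 and 139 CPM under DTA-1. Every DTA-1 library was below every isotype library, with replicate 2 the lowest at 34.5% of the isotype mean. This gave a log2 fold change of -0.91 ± 0.28 (SE), with an adjusted p of 0.39 in edgeR and 0.131 in DESeq2. Without DTA-1 replicate 1 it was -1.21 in edgeR (adjusted p = 0.0571), and DESeq2 called it lower (adjusted p = 0.000159), as it did 10.4% of genes. Without DTA-1 replicate 2 it was -0.68 in edgeR (adjusted p = 0.859) and -0.66 in DESeq2 (adjusted p = 0.588).

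Pgls encodes the lactonase between these 2 dehydrogenases (chromosome 8, 71592176 to 71601092, ENSMUSG00000031807). It differed less between the groups, with 61.1, 57.2 and 50.1 CPM under isotype antibody against 41.3, 36.9 and 52.1 CPM under DTA-1. DTA-1 replicate 3 was between isotype replicates 3 and 2. Its log2 fold change was -0.37 ± 0.18 (SE; edgeR adjusted p = 0.408). As a group, the 3 oxidative genes summed to 443 to 499 CPM in isotype libraries and to 348, 174 and 251 CPM in DTA-1 replicates 1, 2 and 3.

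In the non-oxidative branch, the transferases that shuttle carbon units between sugars had more reads per kb of transcript than the enzymes that interconvert the pentoses. Tkt, transketolase (chromosome 14, 30548359 to 30574720, ENSMUSG00000021957), stood at 416, 328 and 292 CPM under isotype antibody against 266, 110 and 290 CPM under DTA-1. The groups did not overlap, but DTA-1 replicate 3 lay 1.39 CPM under isotype replicate 3. Tkt had a log2 fold change of -0.64 ± 0.37 (SE; edgeR adjusted p = 0.458), or -0.31 without DTA-1 replicate 2.

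Taldo1, transaldolase (chromosome 7, 141392199 to 141402968, ENSMUSG00000025503), stood at 241, 185 and 181 CPM under isotype antibody against 166, 125 and 184 CPM under DTA-1. The groups overlapped, since DTA-1 replicate 3 was above isotype replicate 3, and the log2 fold change was -0.35 ± 0.21 (SE; edgeR adjusted p = 0.47). Rpe, ribulose-phosphate 3-epimerase (chromosome 1, 66700831 to 66719805, ENSMUSG00000026005), had 32.5, 29.2 and 23.7 CPM under isotype antibody against 26.3, 19.5 and 22.3 CPM under DTA-1. Its groups overlapped at a log2 fold change of -0.33 ± 0.19 (SE; edgeR adjusted p = 0.459).

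Rpia, ribose-5-phosphate isomerase (chromosome 6, 70765720 to 70792232, ENSMUSG00000053604), varied more among isotype libraries (27.3, 22.2 and 14.9 CPM in replicates 1, 2 and 3) than among DTA-1 libraries (17.3, 18.5 and 20.9 CPM). All 3 DTA-1 values lay within the isotype range. Rpia had a log2 fold change of -0.18 ± 0.25 (SE; edgeR adjusted p = 0.739), which turned to 0.04 without isotype replicate 1. The 4 non-oxidative genes summed to 511 to 717 CPM in isotype libraries and to 476, 273 and 517 CPM in DTA-1 replicates 1, 2 and 3, so DTA-1 replicate 3 was inside the isotype range here and outside it for the oxidative genes.

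**Figure D2:**
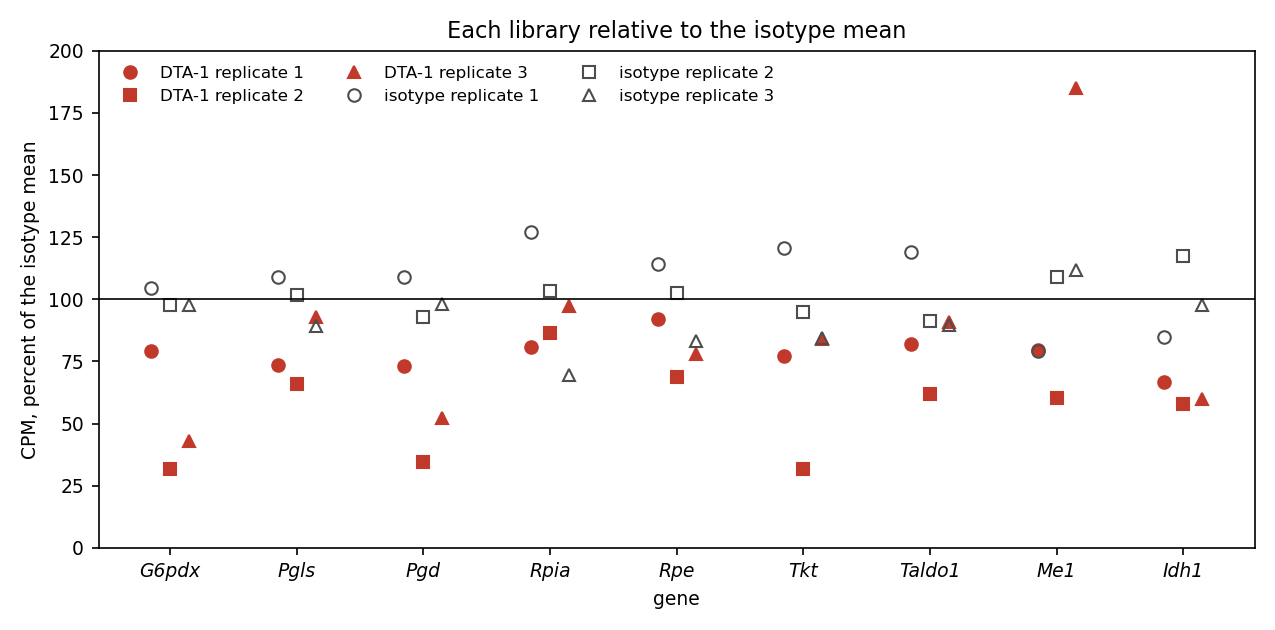
CPM of each library as a percent of the isotype mean of that gene (vertical axis) for the 9 genes (horizontal axis); filled red symbols are DTA-1 libraries, open gray symbols isotype libraries, and shape gives the replicate number. DTA-1 replicate 2 lies at 31.7% to 34.5% for G6pdx, Pgd and Tkt, and DTA-1 replicate 3 ranges from 42.9% for G6pdx to 185% for Me1.

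Idh1 was lower in all 3 DTA-1 libraries by a similar amount. It encodes the NADP-dependent isocitrate dehydrogenase of cytosol and peroxisomes (chromosome 1, 65158616 to 65186500, ENSMUSG00000025950). It stood at 106, 147 and 122 CPM under isotype antibody against 83.2, 72.4 and 75.0 CPM under DTA-1. Unlike for G6pdx, the DTA-1 libraries lay close together, at 66.6%, 58.0% and 60.1% of the isotype mean. The log2 fold change was -0.70 ± 0.17 (SE), the smallest p of the 9 genes, with an adjusted p of 0.39 in edgeR and 0.094 in DESeq2. DESeq2 called it lower without isotype replicate 1 (adjusted p = 0.0455, with 0.948% of genes called lower) and without DTA-1 replicate 1 (0.0167, with 10.4%). In edgeR it did not pass without any single library, the adjusted p lying between 0.0853 and 0.859.

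Me1 was the 1 member with a positive log2 fold change. It encodes the cytosolic malic enzyme, which makes NADPH from malate and is a known gene of fat synthesis (chromosome 9, 86581371 to 86695953, ENSMUSG00000032418). It stood at 109, 150 and 154 CPM under isotype antibody against 110, 83.3 and 255 CPM under DTA-1. DTA-1 replicate 3 was the highest of all libraries and DTA-1 replicate 2 the lowest. Its log2 fold change of 0.12 ± 0.42 (SE; edgeR adjusted p = 0.911) was -0.51 without DTA-1 replicate 3, and it also turned negative, at -0.02, when library totals alone were used for scaling. Fasn, fatty acid synthase and a main user of NADPH in fat, had the same extremes, with 865 CPM in DTA-1 replicate 3, 60.1 in DTA-1 replicate 2 and 140 to 195 CPM in the other libraries.

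Fat markers were also highest in DTA-1 replicate 3. The 11 fat markers summed to 3400 CPM there and to 810 to 2184 CPM elsewhere, with none at 0 in any library. The next highest sum, 2184 CPM, was in DTA-1 replicate 2, where Me1 and Fasn were lowest. The lowest, 810 CPM, was in isotype replicate 1. Lpl and Plin4, which muscle also expresses, made up much of these sums. The adipocyte hormone gene Adipoq stood at 3.94, 29.2 and 12.7 CPM under isotype antibody against 19.1, 15.6 and 92.6 CPM under DTA-1. The part of fat tissue in the level of Me1 was not tested. DTA-1 replicate 3 had both the most Adipoq and the most Me1, so leaving it out does not separate them. Without isotype replicate 2 and DTA-1 replicate 3 the 8 other members stayed negative, none at an unadjusted p under 0.05.

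Squamous markers were also lower in DTA-1 libraries. Their sum was 77.9%, 22.1% and 25.8% of the isotype mean in DTA-1 replicates 1, 2 and 3, the order seen for G6pdx and Pgd. Rpe (92.2%, 68.5% and 78.1%) and Idh1 (66.6%, 58.0% and 60.1%) had this order too. Tkt, Taldo1, Pgls, Rpia and Me1 did not follow it. In DTA-1 replicate 3 they stood at 84.1%, 90.8%, 92.8%, 97.3% and 185% of their isotype mean. The sum of 10 cell cycle genes was 115%, 44.9% and 36.1%. Fold changes of all 21 squamous markers were below 0 (median -1.12), and none passed edgeR. The part of the squamous share in the lower levels of the members was not tested. The 8 neutrophil markers summed to 3695 to 4796 CPM in isotype and to 928 to 3307 CPM in DTA-1 libraries. Nearly all of this came from S100a8 and S100a9, which squamous cells also express. Ly6g, Mpo and Elane, at 0 to 0.188 CPM, were the 3 markers under the filter, while Csf3r, Cxcr2 and Retnlg passed it. Of the 8 markers 5 were tested, all with negative fold changes (median -1.16), and none passed edgeR. For 3 of them every DTA-1 library was below every isotype library, as for 9.38% of genes tested. DESeq2 called 1 of the 8 lower, against 0.81% of genes. The part of neutrophils in these values was not tested.

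**Figure D3:**
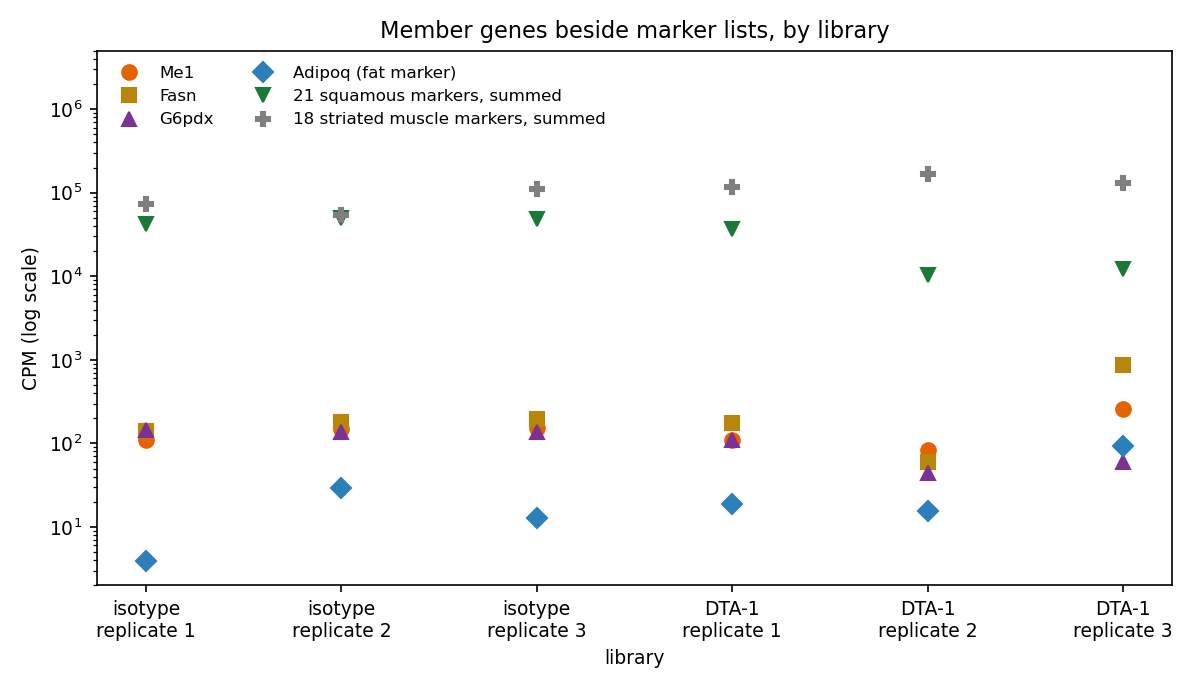
CPM (log axis) in the 6 libraries (horizontal axis) of Me1, Fasn, G6pdx and the fat marker Adipoq, and of the summed squamous and striated muscle markers. Me1, Fasn and Adipoq are highest in DTA-1 replicate 3, and G6pdx and the squamous sum are lowest in DTA-1 replicate 2.

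Levels were compared between genes as CPM per kb of the longest protein-coding transcript. In isotype libraries Taldo1 led with 149 ± 24.7 CPM per kb (SD, n = 3), followed by Pgd (121 ± 9.83) and Tkt (107 ± 19.9). Taldo1 lay above Pgd in every isotype library, by a smallest value of 133 against a largest of 132, and Pgd and Tkt overlapped. Idh1 (54.2 ± 8.94), Pgls (52.8 ± 5.24) and G6pdx (52.7 ± 2.12) followed at nearly the same level and overlapped, and so did Me1 (41.9 ± 7.51) with Idh1. Rpia (11.7 ± 3.40) and Rpe (10.5 ± 1.64) were the least abundant and overlapped with each other. In DTA-1 libraries Taldo1 again led, with 116 ± 22.1 CPM per kb, followed by Tkt (68.8 ± 30.4) and Pgd (64.2 ± 23.3), while G6pdx stood at 27.0 ± 13.0, below Pgls (40.9 ± 7.34) and Me1 (45.4 ± 28.1), though its range overlapped theirs. When lengths were taken over all annotated exons of a gene, Tkt (46.9) and Pgd (41.5) came level with G6pdx (45.4) and Idh1 (45.1) in isotype libraries, and Pgls stood far below them at 14.9, so the order of these genes depends on the gene model.

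Copies and neighbours of the members took few reads, with 2 exceptions among the neighbours. The retrogene G6pd2 matched G6pdx at 93.2% over 2332 bases and had at most 4 reads in a library, 0.11% of those of G6pdx. Copies of Me1 and Taldo1 had at most 0.40% and 0.26% of the reads of their parent gene. The counting settings are not stated, so these values do not show whether reads shared by a copy and its parent were left out. Exons of G6pdx overlap those of Ikbkg on the opposite strand, which had 1096 to 1510 reads per library, and exons of Rpe overlap those of Kansl1l on the opposite strand, with 452 to 705 reads. Without a stated strand setting, reads from these overlaps cannot be assigned with certainty. Exons of Pgls overlap those of Fam129c on the same strand, with 16 to 43 reads, where no strand setting separates them.

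Relatives of 3 members in other compartments were compared by the ratio of reads within a library, which does not depend on scaling. Idh2 encodes the mitochondrial counterpart of Idh1 and is abundant in muscle. It stood at 105, 173 and 182 CPM under isotype antibody against 188, 201 and 244 CPM under DTA-1, all above the isotype libraries, while Idh1 lay below them. The ratio of Idh1 to Idh2 was 1.01, 0.847 and 0.671 under isotype antibody against 0.442, 0.360 and 0.307 under DTA-1. On the log2 scale it was lower by 1.19 (DTA-1 minus isotype, -1.19) with no overlap. The exact two-sided permutation test gave p = 0.1, the smallest that 3 against 3 libraries allow, and 0.2 after Benjamini-Hochberg adjustment over 4 ratios.

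H6pd encodes the glucose-6-phosphate dehydrogenase of the endoplasmic reticulum and stood at 46.4 to 50.0 CPM in isotype libraries and 49.0 to 61.4 CPM in DTA-1 libraries. The ratio of G6pdx to H6pd was 3.06, 2.73 and 2.94 under isotype antibody against 2.26, 0.724 and 0.995 under DTA-1. The groups did not overlap, and the log2 difference was -1.31 (exact two-sided permutation p = 0.1, adjusted 0.2). Leaving out 1 library gave -0.96 to -1.78 for this ratio and -1.04 to -1.34 for the ratio of Idh1 to Idh2.

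The ratios of Me1 to its mitochondrial relatives overlapped between groups. Me3, the mitochondrial NADP-dependent malic enzyme, averaged 16.3 ± 5.52 CPM in isotype and 26.5 ± 5.80 CPM in DTA-1 libraries (SD, n = 3 each), and the log2 ratio of Me1 to Me3 differed by -0.77 (exact permutation p = 0.3, adjusted 0.4). Me2, which prefers NAD, had 17.1 to 22.1 CPM in isotype and 14.4 to 20.0 CPM in DTA-1 libraries, and the log2 ratio of Me1 to Me2 differed by 0.10 (exact permutation p = 0.8, adjusted 0.8). Like Idh2 and the mean of Me3, the striated muscle share was higher in DTA-1 libraries. It was at 11.3% to 15.1% of counts there against 6.17% to 10.5% in isotype libraries. Its order between libraries differed from that of Idh2, being lowest in isotype replicate 2 and highest in DTA-1 replicate 2. Idh2 was lowest in isotype replicate 1 and highest in DTA-1 replicate 3. The part of the muscle share in these ratios was not tested.

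**Figure D4:**
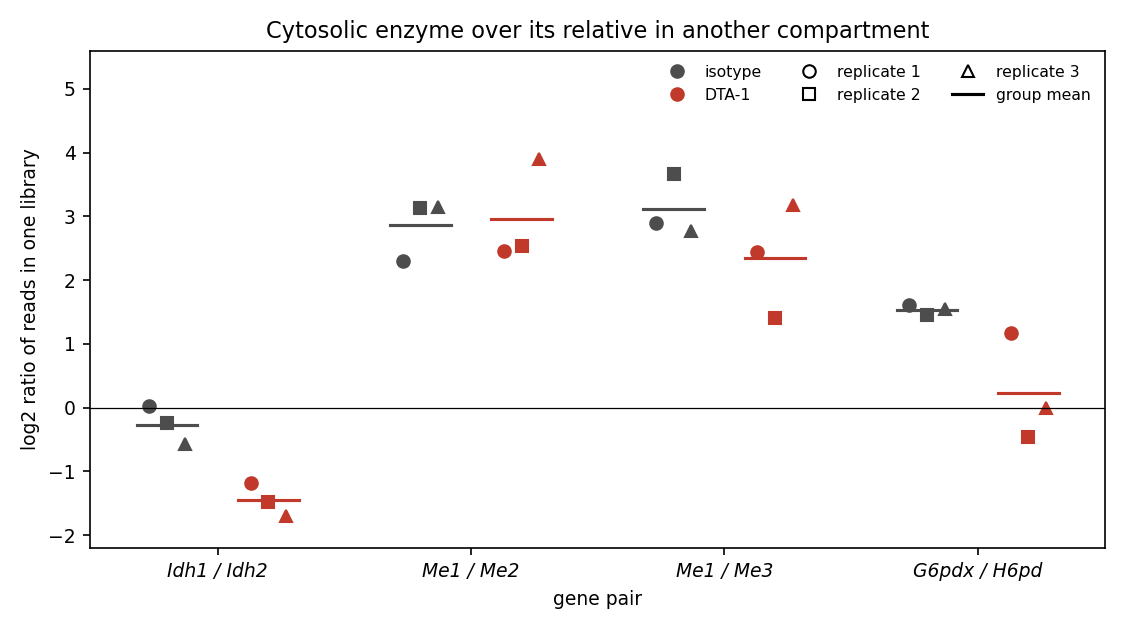
log2 ratio of reads of 2 genes in the same library (vertical axis) for 4 gene pairs (horizontal axis), with isotype libraries in gray, DTA-1 libraries in red, shape for the replicate number and a line for each group mean. The groups are apart for Idh1 over Idh2 and for G6pdx over H6pd, with differences of -1.19 and -1.31, and overlap for both Me1 pairs.

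Among 12 other pentose phosphate genes, 9 were tested, none passed edgeR, and 6 had negative and 3 positive fold changes (median -0.10). Without DTA-1 replicate 3 there were 4 negative and 5 positive (median 0.02). With all libraries, the 3 positive ones were Tigar, Prps1 and H6pd. Tigar, a phosphatase that lowers fructose-2,6-bisphosphate and so turns glucose toward the pathway, stood at 31.2, 39.2 and 39.3 CPM under isotype antibody against 39.9, 58.3 and 60.8 CPM under DTA-1. The groups did not overlap, with DTA-1 above as for 8.6% of genes tested, and the log2 fold change was 0.54 ± 0.21 (SE; edgeR adjusted p = 0.39). Prps1, which turns ribose-5-phosphate into the nucleotide precursor PRPP, had 26.1 to 29.4 CPM in isotype and 33.6 to 40.6 CPM in DTA-1 libraries, also without overlap (log2 fold change 0.38 ± 0.15, SE; edgeR adjusted p = 0.39).

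The other PRPP synthetase gene, Prps2, had a log2 fold change of -0.50 ± 0.30 (SE), and Pgm2, which makes ribose-5-phosphate from ribose-1-phosphate, had -0.55 ± 0.25. Pgm2 had every DTA-1 library below every isotype library, the nearest values being 12.7 and 12.9 CPM. The transketolase-like genes Tktl1 and Tktl2 and the retrogene G6pd2 were under the filter, with at most 0.22 CPM in any library.

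All 12 genes listed for other NADPH supply were tested, and none passed edgeR. The list also holds the NAD kinase genes and Me2, so its counts are not of NADPH-making enzymes alone. Fold changes of the 12 genes were negative for 7 and positive for 5, with a median of -0.12. This balance rested on single libraries, being 3 negative and 9 positive (median 0.03) without isotype replicate 1, and 6 and 6 (median 0.02) without DTA-1 replicate 2. Nadk, the cytosolic NAD kinase that makes NADP, averaged 104 ± 25.1 CPM in isotype and 75.3 ± 10.1 CPM in DTA-1 libraries (SD, n = 3 each). The log2 fold change was -0.46 ± 0.22 (SE), while that of the mitochondrial kinase gene Nadk2 was 0.46 ± 0.25, and both overlapped between groups. The cytosolic folate enzymes Mthfd1 and Aldh1l1, which also make NADPH, had values of -0.14 ± 0.20 and -0.10 ± 0.27, and the mitochondrial Mthfd2 and Aldh1l2 had -0.44 ± 0.47 and -0.83 ± 0.55. With library totals alone as scaling, 6 of the 9 pentose phosphate genes and 8 of these 12 genes were negative.

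**Figure D5:**
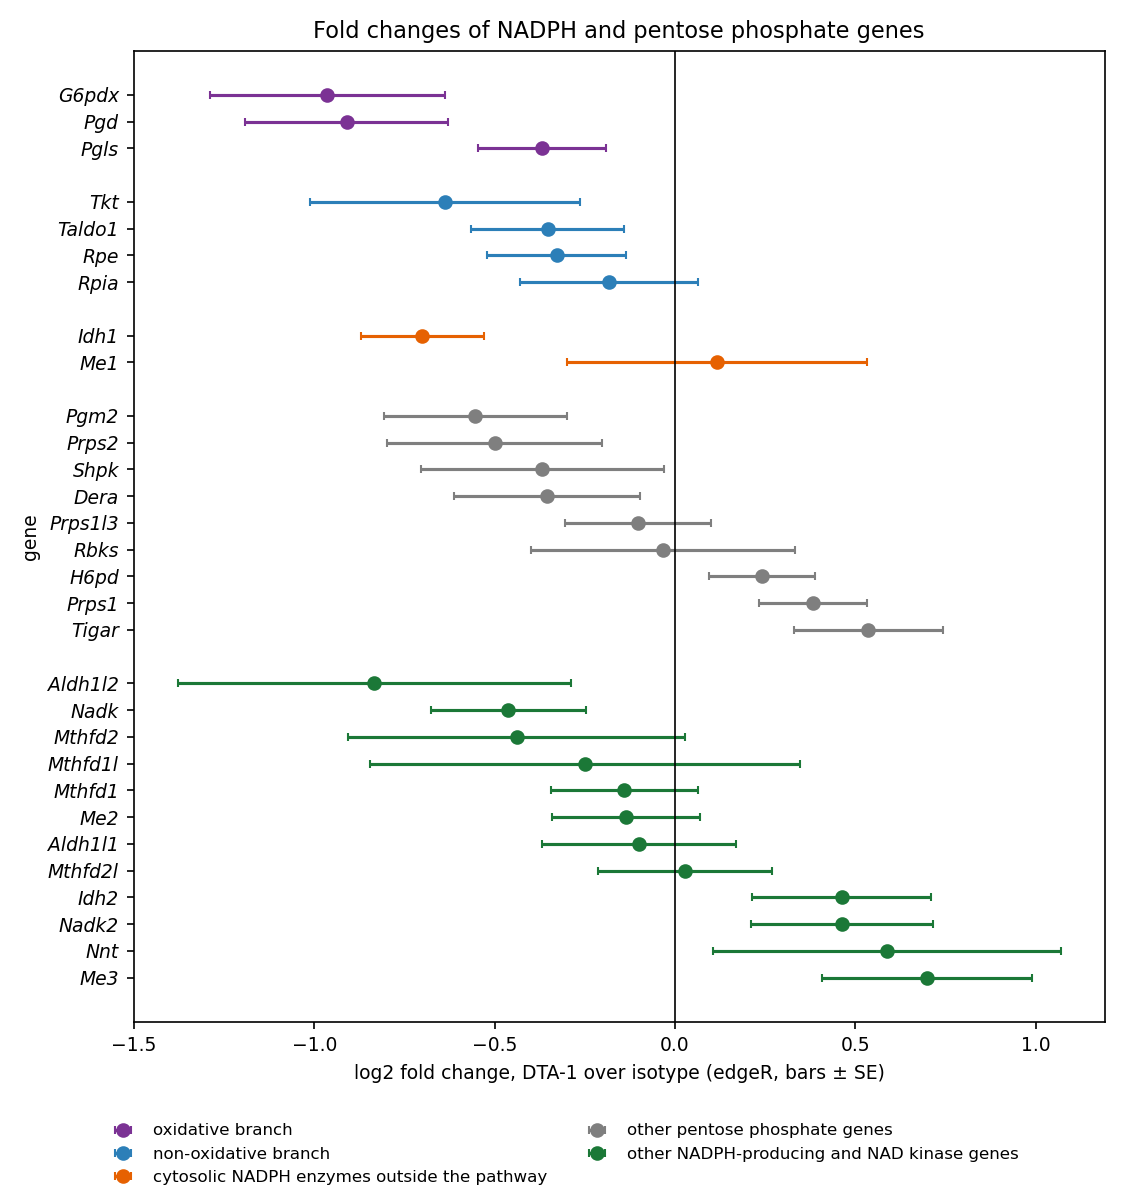
log2 fold change of DTA-1 over isotype with its SE from edgeR (horizontal axis) for the 9 members and the 21 tested genes of the other pentose phosphate and NADPH supply lists (vertical axis), colored by list. Values range from -0.96 for G6pdx to 0.70 for Me3, and none passed the adjusted threshold.

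Among 20 enzymes that spend NADPH, fold changes were negative for 16 and positive for 4 (median -0.49). Without isotype replicate 1 they were negative for 11 and positive for 9 (median -0.15). None passed edgeR, which counted 5 lower and 1 higher at an unadjusted p under 0.05, against 7.52% lower and 5.21% higher among all genes. Blvrb and Cbr3 had the smallest p, and each had every DTA-1 library below every isotype library. Blvrb, biliverdin reductase B, stood at 49.3, 51.1 and 51.9 CPM under isotype antibody against 31.2, 16.9 and 22.0 CPM under DTA-1. Its log2 fold change was -1.12 ± 0.23 (SE; edgeR adjusted p = 0.39), and DESeq2 called it lower (adjusted p = 0.0236), where 0.81% of genes were called lower. Cbr3, a carbonyl reductase, averaged 70.8 ± 13.1 CPM in isotype and 31.1 ± 15.5 CPM in DTA-1 libraries (SD, n = 3 each). Without DTA-1 replicate 1, edgeR called both Blvrb and Cbr3 lower, where 3.31% of all genes were called lower.

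The NRF2 system list held NRF2 itself, genes that regulate it and some of its targets outside the 9 genes. It had 11 negative and 5 positive fold changes among 16 (median -0.40, and -0.24 without isotype replicate 3), none called by edgeR. The list mixes inhibitors with targets, so its signs are not a measure of NRF2 activity. Gclc, of glutathione synthesis, averaged 100 ± 11.0 CPM in isotype and 48.5 ± 24.6 CPM in DTA-1 libraries (SD, n = 3 each), and Ugdh and Slc7a11, the next by p, had log2 fold changes of -0.76 ± 0.27 and -1.33 ± 0.57 (SE). Nfe2l2, the gene of NRF2 itself, had a value of -0.44 ± 0.28, and its inhibitor Keap1 0.31 ± 0.15 with DTA-1 values all above the isotype values. Nfe2l2 and Keap1 were named after their values were seen. The part of the squamous share in these values and in those of the NADPH users was not tested.

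Glycolysis and the citric acid cycle, which draw on the same sugars, had positive medians. In the citric acid cycle list, fold changes were above 0 for 13 of 13 genes (median 0.55). Among all genes tested, 52.9% were below 0. None of the 13 was called by edgeR. For 7 of them every DTA-1 library was above every isotype library, as for 8.6% of genes tested. Suclg1, Fh1 and Idh3a, with the smallest p, had values of 0.55 ± 0.19, 0.60 ± 0.21 and 0.58 ± 0.21 (SE), each at an edgeR adjusted p of 0.39. Of 17 glycolytic genes 11 were positive and 6 negative (median 0.24, 0.41 without isotype replicate 1 and 0.08 with library totals alone), and none passed edgeR. The hexokinases that make the pathway's substrate split, with Hk2 at 285 ± 49.7 CPM in isotype and 464 ± 89.4 CPM in DTA-1 libraries and Hk1 at 130 ± 23.8 and 79.7 ± 21.2 CPM (SD, n = 3 each), both without overlap and with an edgeR adjusted p of 0.39. Pfkm, the muscle phosphofructokinase, averaged 790 ± 210 against 1466 ± 368 CPM. The difference between these lists and the members was not tested, nor was the part of the striated muscle share given above.

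The genes whose pattern over the 6 libraries was most like that of G6pdx were Plbd1, Zdhhc20, Nckap1, Dpp3 and Tgm1, out of 10101 genes compared. Their Pearson r with G6pdx on log2 CPM lay between 0.9961 and 0.9976 and are a description, since all 6 libraries also share the group difference. Tgm1, the transglutaminase of the cornified envelope, stood at 389, 338 and 337 CPM under isotype antibody against 302, 105 and 139 CPM under DTA-1. Plbd1, a lysosomal phospholipase-like gene, stood at 101, 92.1 and 97.3 CPM under isotype antibody against 70.5, 29.8 and 39.2 CPM under DTA-1.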

How the data were processed

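PolyA RNA of 6 esophagus libraries was sequenced, 3 per group. The authors deposited whole-number read counts per Ensembl gene, not normalized. The submitters' processing notes name cutadapt 1.13, STAR, HTSeq 0.6.1p1, DESeq2 1.14.1 and build mm10, without their settings or the strand of counting. Symbols, positions and lengths come from GENCODE M21 (GRCm38), and promoter windows from RefSeq.

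Genes with few reads were dropped (filterByExpr, minimum count 10, minimum total 15), and 15763 remained. In R 4.3.3, edgeR 4.0.16 normalized the rest by TMM and compared the groups by a robust quasi-likelihood test without covariates, with p-values adjusted over all genes by Benjamini-Hochberg. SE is the fold change divided by the square root of F. Alternatives were DESeq2 1.42.0, voom of limma 3.58.1, other scalings, filters, a replicate term and single libraries left out. DESeq2 refits without single libraries or with the replicate term, and fits without 2 libraries, were added after the data were seen. Ratios used reads plus 0.5. On counts simulated for this comparison, again with 15763 genes, edgeR found 7% of 100 genes set to a 2-fold change and 62% of 100 set to 4-fold, and 8 of its 77 calls were false. DESeq2 found 24% and 86%, and 45 of its 155 calls were false.

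The members and lists were chosen with earlier results of these data known. All 9 members were named whatever their values. Genes of the other pentose phosphate and NADPH supply lists could be named freely, and the lists of NADPH users, NRF2 system, glycolysis and citric acid cycle by the 3 smallest p. Some listed genes of the NADPH users are not reported here. The genes most like G6pdx had a mean log2 CPM of at least 3 and the highest Pearson r over 6 libraries (prior count 2). Fasn and single marker genes such as Adipoq and S100a8 were named after their values were seen. Of 229 listed symbols, 2 (Nnt and Aldoa) had more than 1 identifier, and the first was used. At these depths 3 reads equal 0.103 to 0.130 CPM before TMM scaling, which covers counting error only.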

Additional observations from a re-analysis of the deposited data

How the results depend on the processing

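Each fold change of a member was recomputed under 14 planned and 9 added settings. G6pdx, Pgls, Pgd, Rpe, Tkt, Taldo1 and Idh1 stayed negative in all 23. Me1 turned negative with library totals alone (-0.023), limma-voom (-0.044), the edgeR replicate block (-0.037), the DESeq2 replicate block (-0.013), and without isotype replicate 2 and DTA-1 replicate 3 (-0.44), and was highest without isotype replicate 3 and DTA-1 replicate 2 (0.52). Leaving out 1 library gave Me1 -0.513 to 0.405 in edgeR and -0.499 to 0.415 in DESeq2, G6pdx -1.421 to -0.712 in edgeR and Pgd -1.209 to -0.675, and Rpia -0.363 to 0.040 in edgeR and -0.351 to 0.053 in DESeq2. Me1 and Rpia turned without isotype replicate 1 (Me1 -0.011 in edgeR and -0.005 in DESeq2), and Me1 also without DTA-1 replicate 3. Library totals alone moved the median of all genes from -0.03 to -0.19. The number of genes called was 0 in edgeR, 177 in DESeq2 (42 higher, 135 lower) and 250 in DESeq2 with the replicate block. It ranged from 0 to 601 in edgeR and from 41 to 2444 in DESeq2 when 1 library was left out, both highest without DTA-1 replicate 1. DESeq2 called 180, 56 and 901 genes without isotype replicates 1, 2 and 3, and 2444, 41 and 42 without DTA-1 replicates 1, 2 and 3. Limma-voom and the other edgeR settings called 0 genes. Unadjusted p-values under 0.05 numbered 2006 in edgeR and 2193 in limma-voom. Members called numbered 0 in the main edgeR, DESeq2 and limma-voom fits. Without single libraries they numbered 0 to 1 in edgeR and 0 to 3 in DESeq2. Both tools called the most members without DTA-1 replicate 1, where edgeR called 3.31% of genes lower and DESeq2 10.4%. The cause of these changes was not tested. The labels give replicate numbers and do not say whether equal numbers mark a pair. Deviations from the group mean correlated at 0.02, -0.33 and -0.09 for same-numbered libraries. They correlated best for isotype replicate 2 with DTA-1 replicate 3 (0.36). Deviations within a group sum to 0, so these values cannot decide on pairing. The edgeR block called 0 genes and 0 members. The 4 ratios kept their values to 2 decimals with no reads added, and pairing by replicate number cannot move a difference of means over complete pairs. Leaving out 1 library gave -1.34 to -1.04 for Idh1 to Idh2, -0.37 to 0.35 for Me1 to Me2, -1.19 to -0.30 for Me1 to Me3 and -1.78 to -0.96 for G6pdx to H6pd, where the smallest possible p is 0.2. All 9 members had 394 reads or more in every library. Counting error is small beside the spread between libraries for the abundant members, and less so for Rpia and Rpe, which had the fewest reads.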

Other observations

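Nnt, the mitochondrial transhydrogenase that makes NADPH from NADH, had 7, 17 and 17 reads under isotype antibody against 17, 21 and 13 reads under DTA-1. It stood at 0.258 to 0.988 CPM under the first of its 2 identifiers. Among other mitochondrial NADPH enzyme genes, Idh2 stood at 105 to 244 CPM and Me3 at the lower levels given above. The strain C57BL/6J is known to carry a deletion in Nnt, and the strain of these mice is not given in the sources used here. Duox1, a NADPH oxidase of epithelium, stood at 141, 58.9 and 53.2 CPM under isotype antibody against 57.7, 27.5 and 30.8 CPM under DTA-1. Gapdh, a glycolytic gene with many known pseudogenes, was listed at 3.57 to 6.38 CPM, so its level in these counts is uncertain. The muscle gene Aldoa stood at 4112 to 12629 CPM under the first of its 2 identifiers. Both are among the 17 glycolytic genes counted above. Values in this paragraph were picked after they were seen.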
